A study of Mus musculus with 11 samples.

Results

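Acss3, Car8, Ybx3, Nudt19, Mthfd1, Med30, Gtpbp10 and Tmem183a are 8 genes whose signal was lower in hepatocytes without Nemo than in wildtype hepatocytes. They are 8 of the 17 named genes that fell at an adjusted p under 0.05 in Nemo knockout against wildtype, among 30142 genes with a row of their own on the array. Each had 1 row with its symbol alone. They were chosen by their signals in that comparison (0.109% of the 18337 genes tested fell there), so their differences between Nemo knockout and wildtype are given as a description, with no test. Just inside the threshold lay Med30 (adjusted p = 0.0462) and Zfp456, which is not among the 8 (adjusted p = 0.0472); the first named falls just outside it were those of Cpped1 (adjusted p = 0.0542) and Gsto1 (adjusted p = 0.0553).

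RNA of hepatocytes from male mice aged 12 weeks was measured on 11 Affymetrix arrays in 4 groups. These were wildtype (2 arrays), a liver-specific knockout of Nemo in parenchymal cells (Nemo KO, 3 arrays), a knockout of Cxcr6 (Cxcr6 KO, 3 arrays) and both together (double KO, 3 arrays). By their source names, the wildtype and Nemo KO samples are the Cre-negative and Cre-positive mice of a Nemo line, and the Cxcr6 KO and double KO samples those of a combined Nemo and CXCR6 line. Cxcr6 status and mouse line therefore cannot be told apart, and the sources used here do not name the promoter that drives Cre. The replicates are called biological, but nothing says that each is a separate mouse, so the errors measure the spread between these arrays.

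Nemo, encoded by Ikbkg, is the scaffold through which upstream signals switch on the IkB kinases and so the transcription factor NF-kB. Hepatocytes that lack it are prone to death, and such livers go through chronic injury and regeneration. Cxcr6 guides T and NKT cells toward its ligand and is not known as a hepatocyte gene. The 8 genes belong to no single pathway. Acss3 and Nudt19 act on acyl groups and coenzyme A, Mthfd1 on folate-bound carbon units, Gtpbp10 on the mitochondrial ribosome, Ybx3 and Med30 on gene expression, and Car8 on calcium release, while the role of the membrane protein Tmem183a is little known.

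Values are log2 signals, so a difference of 1 is a doubling. The arrays carry no read depth, and their number limits the precision. The array medians lay between 5.19 and 5.38. Ikbkg was at 8.76, 8.90 and 9.49 in double KO, which held both the lowest arrays and the highest, and between 9.02 and 9.47 on the others. Cxcr6 was between 4.94 and 5.56 on all arrays, around the median level of all rows (5.27), where a fall could hardly show. Where the probes of these rows lie relative to the deleted parts is not known here, so they do not check the labels. The wildtype arrays differed most within a group (correlation over all rows 0.984, against 0.990 to 0.995 for the other pairs), with a Mki67 signal, a mark of dividing cells, of 5.35 in replicate 1 and 11.18 in replicate 2. Signals of 16 hepatocyte markers averaged 17.92 to 18.04 on every array, and 11 of 14 markers of T, NK and NKT cells lay at or below that median level.

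The promoters are shown because the 8 genes were low together in Nemo KO and Nemo acts through NF-kB. RefSeq's table for GRCm38.p6 held promoters of 5 of the 8 (Ybx3, Nudt19, Mthfd1, Gtpbp10 and Tmem183a). The 250 bases before the start are printed for 3 of them: Tmem183a and Mthfd1, which had the smallest adjusted p when Nemo was deleted without Cxcr6, and Ybx3, the gene with the smallest difference there. Capitals mark matches on either strand to the CCAAT box (CCAAT), the cAMP response element (TGACGTCA) and the NF-kB consensus.
Tmem183a, chr1:134362007-134362256, minus strand: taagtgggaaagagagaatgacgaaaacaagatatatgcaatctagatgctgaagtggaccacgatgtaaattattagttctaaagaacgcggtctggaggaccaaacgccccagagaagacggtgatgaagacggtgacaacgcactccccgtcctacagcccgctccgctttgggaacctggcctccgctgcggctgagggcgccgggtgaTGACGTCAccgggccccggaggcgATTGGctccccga
Mthfd1, chr12:76254982-76255231, plus strand: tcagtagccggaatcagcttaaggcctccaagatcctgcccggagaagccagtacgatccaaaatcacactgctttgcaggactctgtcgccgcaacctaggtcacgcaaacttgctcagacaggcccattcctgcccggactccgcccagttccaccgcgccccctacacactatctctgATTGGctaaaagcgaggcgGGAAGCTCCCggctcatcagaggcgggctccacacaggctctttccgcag
Ybx3, chr6:131388451-131388700, minus strand: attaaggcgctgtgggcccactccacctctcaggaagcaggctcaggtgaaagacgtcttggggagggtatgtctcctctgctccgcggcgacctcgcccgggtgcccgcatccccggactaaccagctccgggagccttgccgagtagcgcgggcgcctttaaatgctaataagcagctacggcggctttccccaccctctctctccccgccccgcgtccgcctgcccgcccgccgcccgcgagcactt

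A CCAAT box was found before Tmem183a and Mthfd1, a cAMP response element before Tmem183a, and a match to the NF-kB consensus before Mthfd1. Of the 32851 promoters searched over the same length, 33.8% held CCAAT, 1.55% held TGACGTCA and 5% held the NF-kB consensus. The E-box CACGTG, present in 6.02% of promoters, was found in none of the 5. RefSeq listed 2 starts for Tmem183a, and only the bases before the first listed were searched for it and printed. The matches before Tmem183a do not overlap one another, and neither do those before Mthfd1. The upstream bases of Ybx3 were 67.2% G or C, against a median of 52.4% over all promoters. These matches are descriptions of letters, and binding was not measured.

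Acss3 codes for a mitochondrial acyl-CoA synthetase that prefers propionate. Its signal was 10.61 on both wildtype arrays, 8.93, 9.46 and 9.07 in Nemo KO, 11.40, 11.24 and 11.54 in Cxcr6 KO, and 11.07, 10.60 and 10.43 in double KO. The Nemo KO arrays were the lowest and the Cxcr6 KO arrays the highest, with wildtype and double KO mixed between them. Nemo KO was 1.46 ± 0.21 (SE) below wildtype, a ratio of 2.75. Double KO was 0.69 ± 0.18 below Cxcr6 KO, and this did not pass in the limma fit (adjusted p = 0.0528), although all 3 double KO arrays lay below all 3 Cxcr6 KO arrays. Acss3 was the only one of the 8 whose double KO mean (10.70 ± 0.33, SD, n = 3) was at the wildtype level.

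Nudt19 codes for a Nudix hydrolase that breaks down coenzyme A. Its signal was 9.88 and 10.12 in wildtype, 8.94, 8.50 and 8.69 in Nemo KO, 9.88, 10.29 and 10.26 in Cxcr6 KO, and 9.49, 9.18 and 9.15 in double KO. All 6 arrays with Nemo deleted lay below all 5 with Nemo intact. Nemo KO was 1.29 ± 0.18 below wildtype. In double KO Nudt19 fell by 0.87 ± 0.16 against Cxcr6 KO (1.83-fold, limma adjusted p = 0.0208).

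Mthfd1 codes for the cytosolic enzyme with 3 activities that interconverts folate-bound carbon units for purine, thymidylate and methionine synthesis. Its signal was 13.75 and 13.81 in wildtype, 13.03, 12.97 and 12.97 in Nemo KO, 13.97, 14.07 and 14.09 in Cxcr6 KO, and 13.61, 13.36 and 13.58 in double KO. The 4 groups did not overlap anywhere, in the order Nemo KO, double KO, wildtype, Cxcr6 KO. Nemo KO was 0.79 ± 0.09 below wildtype. Mthfd1 fell by 0.53 ± 0.08 in double KO against Cxcr6 KO (1.44-fold, limma adjusted p = 0.0148).

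Gtpbp10 codes for a GTPase needed to build the large subunit of the mitochondrial ribosome, and it had the smallest fall of the 8. Its signal was 8.80 and 8.78 in wildtype, 8.25, 8.07 and 8.19 in Nemo KO, 8.79, 8.88 and 8.77 in Cxcr6 KO, and 8.57, 8.42 and 8.42 in double KO. Wildtype and Cxcr6 KO overlapped, and both lay above both groups without Nemo. The difference was 0.61 ± 0.09 between Nemo KO and wildtype, and Gtpbp10 fell by 0.34 ± 0.08 in double KO against Cxcr6 KO (1.27-fold, limma adjusted p = 0.0378).

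Ybx3 codes for a cold shock domain protein that binds DNA and RNA. Its signal was 9.86 and 9.76 in wildtype, 8.51, 8.22 and 8.54 in Nemo KO, 9.11, 9.62 and 9.54 in Cxcr6 KO, and 9.48, 9.32 and 9.32 in double KO. Only the Nemo KO arrays stood apart at the low end, and the double KO arrays lay within the range of Cxcr6 KO. Nemo KO was 1.39 ± 0.16 below wildtype. Double KO and Cxcr6 KO differed by -0.05 ± 0.14 (limma adjusted p = 0.835), with a 95% interval from -0.38 to 0.27. Over the alternative settings that difference lay between -0.21 and 0.05, so it had no settled sign.

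Med30 codes for a subunit of Mediator, the complex that links transcription factors to RNA polymerase II. Its signal was 7.95 and 7.62 in wildtype, 6.91, 6.73 and 7.07 in Nemo KO, 7.73, 7.87 and 7.87 in Cxcr6 KO, and 7.24, 7.36 and 7.36 in double KO. Wildtype spanned the Cxcr6 KO values, and the arrays without Nemo all lay lower. Nemo KO was 0.88 ± 0.13 below wildtype, and Med30 fell by 0.51 ± 0.12 in double KO against Cxcr6 KO (1.42-fold, limma adjusted p = 0.0358).

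Car8 codes for a carbonic anhydrase relative without enzyme activity that binds an inositol trisphosphate receptor. Its signal was 12.32 and 11.58 in wildtype, 10.57, 10.39 and 10.56 in Nemo KO, 12.16, 12.36 and 12.19 in Cxcr6 KO, and 11.51, 11.11 and 11.14 in double KO. The wildtype arrays differed by more than those of any other group, and replicate 2 was only just above the highest double KO array. Nemo KO was 1.44 ± 0.21 below wildtype, and 1.81 without wildtype replicate 2 or 1.07 without replicate 1. In double KO Car8 fell by 0.98 ± 0.18 against Cxcr6 KO (1.97-fold, limma adjusted p = 0.0215), the widest difference of the 8 there.

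Tmem183a was among the tightest within groups. Its signal was 12.03 and 12.17 in wildtype, 11.18, 10.91 and 11.13 in Nemo KO, 12.10, 12.10 and 11.99 in Cxcr6 KO, and 11.53, 11.52 and 11.48 in double KO. Wildtype and Cxcr6 KO overlapped, double KO lay below both, and Nemo KO lay lowest. Nemo KO was 1.02 ± 0.10 below wildtype, a ratio of 2.03, and Tmem183a fell by 0.55 ± 0.09 in double KO against Cxcr6 KO (1.47-fold, limma adjusted p = 0.0148).

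**Figure D1:**
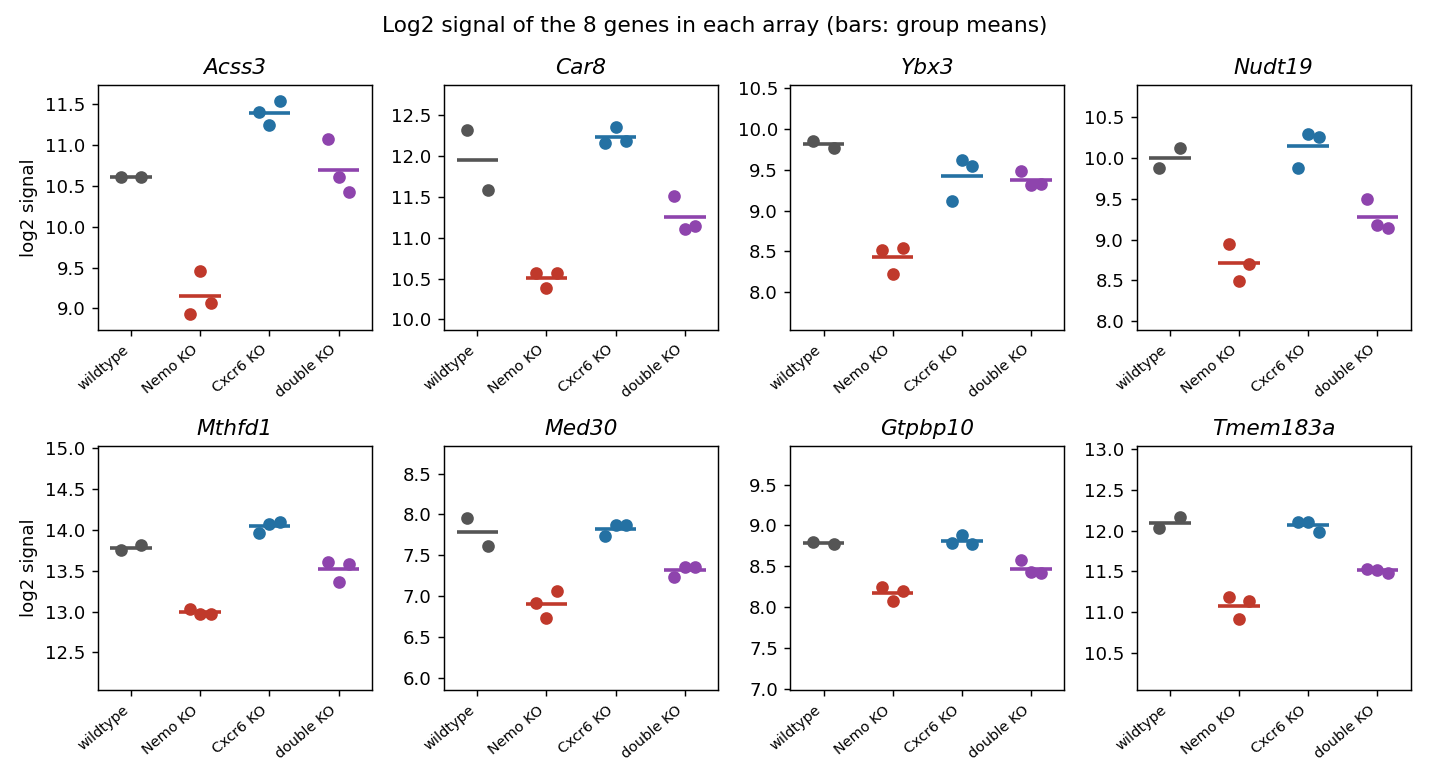
Log2 signal of each of the 8 genes (y axis, the same span of log2 units in each panel) on each of the 11 arrays, by genotype (x axis); points are arrays and bars group means. Nemo KO is lowest in every panel, and double KO lies above it in every panel.

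Markers of other cell types also moved with the choosing comparison. The 16 endothelial markers averaged 6.79 to 6.84 in wildtype and 7.09 to 7.53 in Nemo KO, and the 14 stellate cell and fibroblast markers 5.49 to 5.75 and 5.93 to 6.03, both without overlap. The 16 Kupffer cell and macrophage markers overlapped, 6.40 to 7.38 and 7.04 to 8.44. The wildtype arrays lay far apart in the 23 cell cycle genes, at 5.74 and 7.57, around the Nemo KO range of 6.50 to 6.78. In the 17 male-biased liver genes wildtype replicate 2, at 13.73, lay below every other array (14.76 to 15.94). The part of these in the falls was not tested, and fewer cells of a type and less RNA per cell cannot be told apart in such samples.

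Nemo deletion in the line without Cxcr6 was measured on 6 arrays whose group means did not enter the differences that chose the genes, although their spread did. There, 6 of the 8 (Car8, Nudt19, Mthfd1, Med30, Gtpbp10 and Tmem183a) fell in double KO against Cxcr6 KO, while Acss3 and Ybx3 did not pass. Over all 18337 genes tested, 3.96% fell in this comparison at the same threshold. The median difference of the 8 was -0.54, against -0.06 over all genes tested. For 7 of the 8, every double KO array lay below every Cxcr6 KO array, which held for 24.4% of all genes tested. The choice favours genes with a small spread on these arrays, and through it the counts of 6 and 7.

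The spread in the fit comes from all 4 groups, and the choosing comparison leaned on it. Without Cxcr6 KO replicate 2, 0 genes passed in Nemo KO against wildtype in limma (3339 were lower at an unadjusted p under 0.05), as without its replicate 3 (3417) and in the fit of those 2 groups alone (2063). Fitted on double KO and Cxcr6 KO alone, the same 6 genes fell, with adjusted p between 0.0108 (Tmem183a) and 0.037 (Gtpbp10) in limma, against 10.7% of all genes. This fit uses the spread of the same 6 arrays again, so it does not remove the dependence on the choice. The calls changed with single arrays. In limma 0 of the 8 passed without Cxcr6 KO replicate 2 or without replicate 3, when 0.267% and 0.179% of all genes fell. At an unadjusted p under 0.05, 7 of the 8 were lower each time, beside 2633 of 18385 and 2457 of 18432 genes. Without Cxcr6 KO replicate 1, 3 passed (1.68% of all genes fell then). Without double KO replicates 1, 2 and 3 in turn, 6, 2 and 1 passed, when 3.21%, 1.06% and 0.3% of all genes fell. Without Nemo KO replicates 1, 2 and 3, 4, 7 and 6 passed, when 2.07%, 7.88% and 4.61% of all genes fell. Whether the difference of a gene was unequal with and without Cxcr6 was not tested, since the comparison with Cxcr6 chose the genes. With 1 array left out, the difference of Car8 stayed between -1.11 and -0.91, that of Mthfd1 between -0.57 and -0.45, and that of Tmem183a between -0.59 and -0.53.

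**Figure D2:**
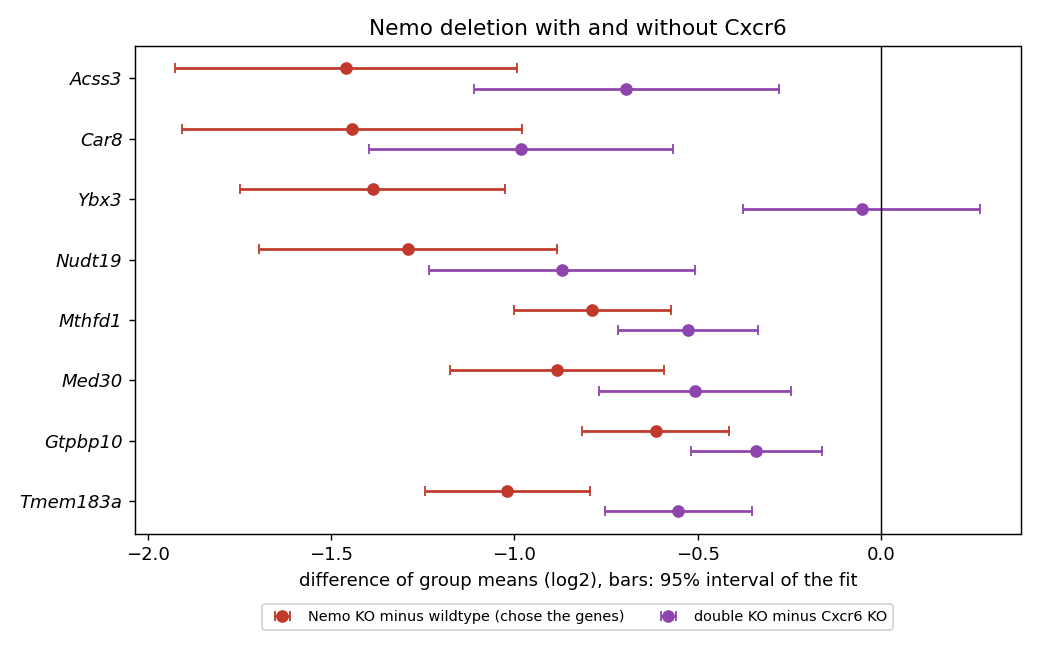
Difference of group means on the log2 scale (x axis) for each gene (y axis), for Nemo KO minus wildtype and for double KO minus Cxcr6 KO; points are estimates and bars 95% intervals of the limma fit. All 8 estimates without Cxcr6 lie to the right of those with Cxcr6, from -0.98 for Car8 to -0.05 for Ybx3, and the first comparison chose the genes.

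Markers of other cell types moved with the comparison of double KO and Cxcr6 KO. The mean signal of 16 endothelial markers was 6.27 to 6.84 in Cxcr6 KO and 7.73 to 8.54 in double KO. That of 16 Kupffer cell and macrophage markers was 6.74 to 7.03 and 7.77 to 8.65, and that of 14 stellate cell and fibroblast markers 5.40 to 5.48 and 6.03 to 6.75, with 1, 1 and 5 of the markers at or below the median level of all rows. The 23 cell cycle genes averaged 5.87 to 5.98 and 6.51 to 8.30. The 17 male-biased liver genes were higher in Cxcr6 KO, 15.69 to 15.94 against 14.76 to 15.13. The hepatocyte markers overlapped, 17.93 to 18.04 against 17.92 to 18.01, near the ceiling of the scale at 19.93. The 9 cholangiocyte markers were at 5.57 to 5.66 and 6.21 to 6.77. The 3 erythroid markers, 1 of them at or below the median level, were lower in double KO, 6.55 to 6.74 against 7.25 to 7.37. The part of these in the falls was not tested.

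Double KO lay between Nemo KO and wildtype for 7 of the 8 genes and just above wildtype for Acss3. This comparison shares the Nemo KO arrays, low by the choice of genes, with the choosing comparison, so the return is a description. All 3 double KO arrays lay above all 3 Nemo KO arrays for each of the 8, where the same held for 12.9% of all genes tested. The gap between the nearest arrays was 0.97 for Acss3, 0.78 for Ybx3 and 0.54 for Car8, and 0.17 for both Med30 and Gtpbp10.

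As a share of the distance from the Nemo KO mean to the wildtype mean on the log2 scale, double KO had regained 106% for Acss3, 68.4% for Ybx3, 66.4% for Mthfd1 and 51.8% for Car8. The share was 48.7% for Gtpbp10, 47.0% for Med30, 43.6% for Nudt19 and 42.6% for Tmem183a, and the median of the 8 was 50.2%. Apart from Acss3, every double KO array lay below both wildtype arrays, which 19.5% of all genes tested also showed. The wildtype arrays, high by the choice of genes, enter this and the shares above, so both are descriptions. As log2 distances the order is another: the double KO mean lay 0.26 below wildtype for Mthfd1, 0.32 for Gtpbp10, 0.44 for Ybx3, 0.47 for Med30, 0.59 for Tmem183a, 0.70 for Car8 and 0.73 for Nudt19. With quantile normalization the lowest shares were those of Nudt19 (40.2%) and Gtpbp10 (42.1%), below Tmem183a (45.5%). The share for Car8 was 41.2% without wildtype replicate 2 and 69.5% without replicate 1, and for Med30 39.5% and 58.0%, so their places in the order also depend on the wildtype array used.

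**Figure D3:**
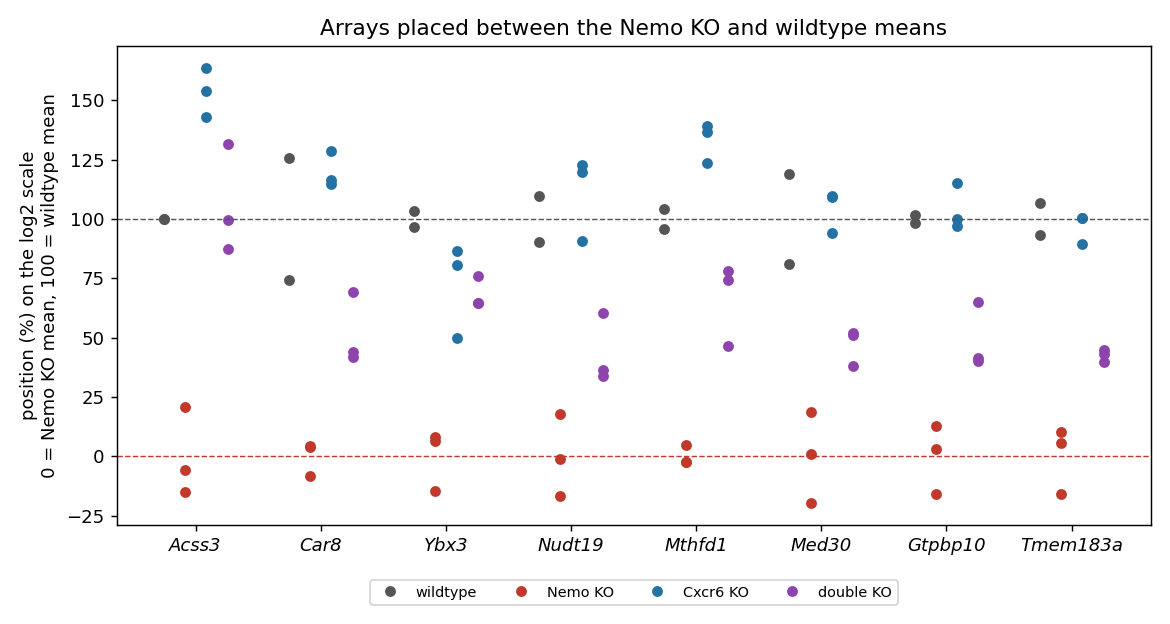
Position of every array between the Nemo KO mean (0) and the wildtype mean (100), in percent of that distance on the log2 scale (y axis), for each gene (x axis); points are arrays, coloured by genotype. Double KO arrays of Tmem183a lie between 39.8 and 44.9, those of Acss3 between 87.2 and 131.

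Wildtype and Cxcr6 KO, the Cre-negative mice of the lines, were farthest apart for Acss3. Acss3 was 0.78 ± 0.21 higher in Cxcr6 KO than in wildtype, so its double KO level met wildtype from above while lying below Cxcr6 KO. Ybx3 was 0.38 ± 0.16 lower in Cxcr6 KO than in wildtype, and its double KO level lay among the Cxcr6 KO arrays. For Nudt19, Med30, Gtpbp10 and Tmem183a, Cxcr6 KO and wildtype differed by 0.14 ± 0.18, 0.04 ± 0.13, 0.03 ± 0.09 and -0.03 ± 0.10. For Car8 the difference was 0.29 ± 0.21, and it was -0.082 without wildtype replicate 2. Mthfd1 was 0.26 ± 0.09 higher in Cxcr6 KO. These differences use the wildtype arrays, high by the choice of genes, and are not tested.

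Beside the higher levels in double KO than in Nemo KO, the endothelial markers were also higher in double KO (7.09 to 7.53 in Nemo KO), and the stellate cell markers were at 5.93 to 6.03 in Nemo KO, touching the lowest double KO array at 6.03. The macrophage markers overlapped (7.04 to 8.44 in Nemo KO), as did the cell cycle genes (6.50 to 6.78 in Nemo KO). The cholangiocyte markers were higher in double KO (5.83 to 5.86 in Nemo KO). The erythroid markers (6.91 to 7.41 in Nemo KO) and the male-biased genes (15.26 to 15.89) were lower in double KO than in Nemo KO. Their part in the return was not tested.

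Across 6 of the 8 genes (all but Acss3 and Ybx3), the 6 arrays with Nemo deleted lay below the 5 with Nemo intact, as for 7.12% of all genes tested. The choice of genes favours this separation, since the Nemo KO arrays are low and the wildtype arrays high by it. With quantile normalization this held for 5, since Car8 overlapped. Pairs among the 8 had Pearson correlations over the 11 arrays from 0.78 (Acss3 and Ybx3) to 0.98 (Gtpbp10 and Tmem183a), which the shared choice favours. After each group's mean was removed, the 28 pairs had a median correlation of 0.20, from -0.50 (Acss3 and Tmem183a) to 0.79 (Ybx3 and Nudt19), and 22 were above 0. The same 11 arrays underlie every pair. The residual SD was 0.07 for Gtpbp10, 0.08 for Mthfd1 and 0.09 for Tmem183a, against a median of 0.19 over all genes tested, and 0.24 for Acss3 and Car8.

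The genes most alike to the mean profile of the 8 over the 11 arrays were Mpc1-ps (Pearson r = 0.98), Sdhd (0.97), Mpc1 (0.97), Mospd1 (0.97) and Pomp (0.97). Mpc1 is part of the carrier that brings pyruvate into mitochondria, Mpc1-ps is a pseudogene of it whose row can carry its signal, and Sdhd is a membrane anchor of succinate dehydrogenase. Mpc1 had group means of 8.34 in Nemo KO and 8.82 in double KO, against 9.19 in wildtype and 9.27 in Cxcr6 KO. Sdhd had 11.84 and 12.64, against 12.97 and 13.35, in the same order. For single genes, the highest correlations were those of Nudt19 with Gabpa (0.99), Med30 with Fech (0.99), Tmem183a with Map2k4 (0.98), Car8 with Brd7 (0.98), Gtpbp10 with Mpc1-ps (0.98) and Mthfd1 with Sdhd (0.98). Acss3 was most like Tiprl (0.97) and Ybx3 most like Vbp1 (0.96). Fech and Mpc1-ps are themselves among the 17 falls that the choice drew on.

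Other genes of the pathways around the 8 were examined in 10 lists, with the 8 left out. The lists were chosen with earlier results of these data known, which can favour falls in them. Their counts and medians are therefore descriptions. Of 190 such genes tested, 21 fell (11.1%) and 2 rose (1.05%) in double KO against Cxcr6 KO in limma, against 3.96% and 3.44% of all genes tested. In Nemo KO against wildtype 0 of the 190 passed, where 0.109% of all genes fell and 0.0491% rose in limma. At an unadjusted p under 0.05, 58 of the 190 were lower and 3 higher, beside 3657 and 849 of all 18337 genes tested. With quantile normalization or with trend and robust variances 0 of the 190 passed as well. With each array centred on its median, 17 of them fell (8.95%, against 6.78% of all genes). Without Nemo KO replicate 3, 12 fell and 1 rose (4.85% of all genes fell then). Fits without a wildtype replicate keep a single wildtype array, so their list counts are not given. In double KO against Cxcr6 KO, the count of 21 became 1 without Cxcr6 KO replicate 3, when 0.179% of all genes fell. It was 2 without Cxcr6 KO replicate 2 (0.267% of all genes) and 2 without double KO replicate 3 (0.3%). Without double KO replicate 2 it was 8 (1.06%), and without Nemo KO replicate 2 it was 30 (7.88%). With array weights it was 56, when 17% of all genes fell.

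Around Acss3, 3 of 15 acyl-CoA synthetases and propionate genes fell in double KO against Cxcr6 KO and none rose (median -0.40). They were the medium-chain synthetases Acsm3 (-1.27 ± 0.30, limma adjusted p = 0.0387) and Acsm5 (-0.96 ± 0.17, limma adjusted p = 0.0178) and Pccb, a subunit of propionyl-CoA carboxylase (-0.97 ± 0.19, limma adjusted p = 0.0243). The mean of Pccb was 12.02 in double KO and 12.03 in wildtype, with Nemo KO at 11.26 and Cxcr6 KO at 12.99. Around Nudt19, 3 of 16 genes of coenzyme A turnover fell. Pank1 and Pank3, kinases of the first step of coenzyme A synthesis, fell by 1.29 ± 0.17 and 1.24 ± 0.24, and the Nudix hydrolase Nudt12 by 0.77 ± 0.14 (limma adjusted p = 0.00858, 0.0226 and 0.0202). The means of Pank1, Pank3 and Nudt12 were higher in Cxcr6 KO (14.77, 12.48 and 12.01) than in wildtype (13.87, 11.45 and 11.47). They were 13.48, 11.24 and 11.24 in double KO and 13.31, 11.10 and 10.92 in Nemo KO.

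Of 38 genes of peroxisomes, where fatty acids are shortened, 10 fell and none rose (median -0.40). They included the acyl-CoA thioesterases Acot3 (-2.28 ± 0.33) and Acot4 (-1.16 ± 0.18), the thiolase Acaa1a (-0.94 ± 0.17) and the import receptor Pex7 (-0.72 ± 0.15). Acaa1a can share signal with its near-identical relative Acaa1b. In Nemo KO against wildtype the median of the 38 was -0.32, with none past the threshold. The mean of Acot3 was 7.42 in double KO, between Nemo KO at 6.29 and wildtype at 8.07, and 9.70 in Cxcr6 KO. The double KO means of Acot4 (7.95) and Pex7 (10.60) also lay between Nemo KO (7.14 and 10.20) and wildtype (8.36 and 11.09). That of Acaa1a did not, at 10.79 in double KO, 10.66 in Nemo KO and 10.47 in wildtype, against 11.73 in Cxcr6 KO. Acaa1b and Abcd3, also among the 10, were above wildtype in double KO too (14.53 against 13.75, and 16.24 against 15.75).

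Around Mthfd1, 1 of 27 folate and one-carbon genes fell, Shmt1, which passes a serine carbon to folate (-1.10 ± 0.25, limma adjusted p = 0.036), and the median was -0.07. Shmt1 was lower in double KO (10.65) than in Nemo KO (11.27), unlike Mthfd1. None of 10 genes of purine synthesis passed, and their median was -0.26, against -0.06 over all genes tested. In Nemo KO against wildtype none of these 10 passed either, with a median of -0.44 against -0.04 over all genes tested. Around Car8, 3 of 8 carbonic anhydrases fell: the mitochondrial Car5a (-1.72 ± 0.37), Car1 (-1.45 ± 0.28), known from red cells, and Car3 (-1.09 ± 0.23). The mean of Car1 was 7.46 in double KO, 7.33 in wildtype and 7.03 in Nemo KO, against 8.91 in Cxcr6 KO. Car5a and Car3 were lower in double KO (11.42 and 17.73) than in wildtype (12.01 and 18.60). The erythroid markers were lower in double KO too (6.55 to 6.74 against 7.25 to 7.37), and their part in the fall of Car1 was not tested. Of 14 genes of inositol trisphosphate and calcium release, none fell and Itpkb, an inositol trisphosphate kinase, rose (0.57 ± 0.09).

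Around Med30, none of 31 other Mediator subunits fell and Med12l rose (1.13 ± 0.19), with a median of -0.02. The mean of Med12l was 7.83 in double KO and 6.70 in Cxcr6 KO, with Nemo KO at 7.69 and wildtype at 7.46. In Nemo KO against wildtype the Mediator median was -0.20, and the smallest p-values were those of Med8 (-0.76 ± 0.13) and Med1 (-0.46 ± 0.08), neither of which passed (limma adjusted p = 0.0553 for both). Around Gtpbp10, 1 of 30 assembly factors of the mitochondrial ribosome fell, the mitochondrial RNA-binding protein Grsf1 (-0.85 ± 0.14), with a median of -0.14. The mean of Grsf1 was 11.27 in double KO and 12.11 in Cxcr6 KO, with Nemo KO at 11.22 and wildtype at 11.64. Around Ybx3, none of 4 tested genes passed; its relative Ybx1 had means of 8.98 in Nemo KO and 9.35 in double KO, against 9.81 in wildtype and 9.83 in Cxcr6 KO.

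**Figure D4:**
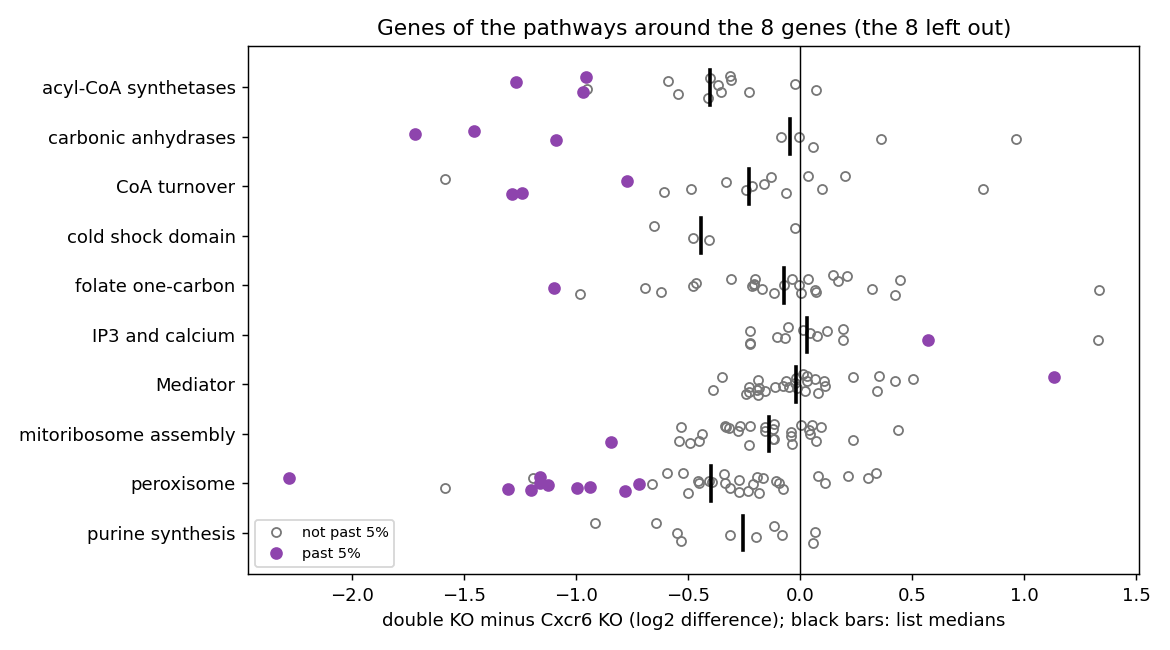
Log2 difference between double KO and Cxcr6 KO (x axis) for the genes of 10 pathway lists (y axis), without the 8 genes; points are genes, filled where the limma adjusted p was under 0.05, and black bars are list medians. Of 38 peroxisome genes 10 are filled, all on the lower side, and of 31 Mediator genes 1 is filled, on the higher side.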

How the data were processed

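Hepatocyte RNA (300 ng per sample, per the labels' protocols) was measured on 11 Affymetrix arrays. The deposited table holds log2 signals in 65956 rows, made by the authors with RMA, Affymetrix Expression Console and Transcriptome Analysis Console, per the submitters' processing notes. Versions and genome build are not given in the sources used here. Platform annotation gave 30604 rows a single symbol, 2146 several and 33206 none; 22818 matched RefSeq (GRCm38.p6) by gene identifier. For each gene the row with the highest mean was used, and 18337 genes whose highest group mean reached 5.27, the median of all row means, were tested. One limma 3.58.1 fit (R 4.3.3) held a mean for each of the 4 groups, with 7 residual and 2.13 prior degrees of freedom, two-sided, with Benjamini-Hochberg adjustment over all genes tested and a threshold of 5%. The fit was tested on simulated data. Errors of differences are standard errors. Named genes were the 8, the 3 most correlated with each (5 for their mean profile), up to 3 genes of each list with the smallest p-values in each of the Nemo comparisons, the threshold's neighbours, Ikbkg, Cxcr6 and Mki67. The 8 genes and the lists were chosen with earlier results of these data known. Alternatives covered normalization, filters, variance model, array weights, replicate block, row choice, samples fitted and each array left out.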

Additional observations from a re-analysis of the deposited data

How the results depend on the processing

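With each array centred and with quantile normalization, the 8 genes lay below wildtype in Nemo KO and above Nemo KO in double KO; the other alternatives could hardly change this by construction. Of the 160 tested member results, 124 kept their side of the threshold, 31 lost it and 5 gained it. All 31 losses came from the 6 genes that fell in the reported fit. Ybx3 passed in 0 of the 20 alternatives and Acss3 in 5. Of the 6, Gtpbp10 passed in 11, Med30 in 12, Car8 in 15, Nudt19 in 16, Tmem183a in 17 and Mthfd1 in 18. In double KO against Cxcr6 KO, 4 of the 8 fell with each array centred on its median (2.52% of all genes). The number was 7 with quantile normalization (6.01%), 5 with the replicate block (4.71%), and 0 to 7 with 1 array left out. With 1 array left out, 4 untested differences, all of Cxcr6 KO against wildtype, took both signs: Car8 (-0.082, without wildtype replicate 2, to 0.65), Med30 (-0.13 to 0.21), Gtpbp10 (-0.0088 to 0.047) and Tmem183a (-0.10 to 0.036).

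The counts over all genes moved more. In Nemo KO against wildtype, 20 fell and 9 rose in the reported fit. With each array centred on its median these were 1239 and 90, with quantile normalization 5 and 6, with no filter 5 and 2, with the stricter filter 64 and 21, and with trend and robust variances 6 and 5. They were 0 and 0 with array weights, with the replicate block and in the fit of the 2 groups alone. With 1 array left out they were 0 to 2020 and 0 to 360. In double KO against Cxcr6 KO, 727 fell and 631 rose. These were 461 and 657 with each array centred, 1098 and 651 with quantile normalization, 3124 and 1568 with array weights, 473 lower with no filter, 1911 lower in the fit of the 2 groups alone, and 33 to 1454 and 83 to 970 with 1 array left out. The causes were not tested. Centring moved the median of all genes by 0.12 in double KO against Nemo KO, and the members still differed by 0.42 to 1.66 there. Same-numbered arrays had residual correlations of 0.275 and 0.146 for Nemo KO and wildtype (2 pairs), -0.232 to 0.139 for double KO and Nemo KO, -0.036 to 0.059 for double KO and Cxcr6 KO, and -0.077 and -0.0036 for Cxcr6 KO and wildtype, so the numbers were not taken as pairing; the replicate block left 5 of the 8 past the threshold, without Gtpbp10.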
